A study of Mus musculus with 2 samples.

Results

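Cell division genes were described across the germ cells of the mouse testis, in a Dot1L conditional knockout (cKO) library and in a control library. The set is a list of 30 genes named for their part in mitosis and meiosis, of 32285 genes counted, and all 30 were found by symbol. RNA of single cells from whole dissociated testis was captured by its 3′ ends in droplets and counted as unique molecular identifiers (UMIs), each standing for a captured molecule. The cKO library came from Dot1L fl/delta; Ddx4-Cre+ testes and the control library from Dot1L fl/+; Cre- testes. The Ddx4 promoter drives Cre in germ cells, and by genotype the somatic cells of the cKO testis also carry the delta allele, beside a floxed one. DOT1L is a histone H3 methyltransferase. The labels used here give neither age, strain nor number of animals. With 1 library per genotype no test between genotypes was possible, and the 95% intervals below stand for counting error alone, by the exact Poisson method for levels, the exact conditional binomial method for ratios and the Clopper-Pearson method for shares.

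Germ cells divide in mitosis and in meiosis. Spermatogonia multiply by mitosis, and spermatocytes replicate their DNA, pass through a long prophase in which homologous chromosomes pair and recombine, and then divide in meiosis I and meiosis II without replicating in between. Round spermatids are the haploid products and do not divide again. CDK1 with a B-type cyclin drives entry into both kinds of division, and the anaphase-promoting complex (APC/C), a ubiquitin ligase, drives exit by marking cyclins and securin for degradation. Some of the genes have relatives used in meiosis, such as Aurkc beside Aurkb and Fbxo43 beside Fbxo5.

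The cKO library held 156518838 UMIs and the control library 155487418. After filters 18106 cKO and 15670 control cells were kept, and the libraries shared 102 barcode sequences. Cell classes were rebuilt from markers, with division genes left out of the clustering, and may differ from the classes of the study. There were 473 cKO and 254 control spermatogonium-like, 1157 cKO and 683 control early spermatocyte-like, 1091 cKO and 1068 control mid to late spermatocyte-like, 1181 cKO and 1528 control round spermatid-like, 2938 cKO and 3361 control elongating spermatid-like and 639 cKO and 192 control somatic cells. Of the markers of the germ cell classes in that order, 13 of 14, 14 of 14, 7 of 13, 12 of 14 and 13 of 14 lay above 1.5 times their level in all kept cells. The same markers were used to name the clusters, so these counts are no separate check. Unnamed clusters held 46.6% of cKO and 42.9% of control cells and low-RNA clusters 12.1% and 11.8%, and neither entered a class. Free RNA, estimated from spermatid markers in somatic cells, came to 1863 UMIs per cKO and 1241 per control cell. For the members as a whole this estimate exceeded the UMIs counted in somatic and elongating spermatid-like cells. It is thus too high there and only a rough guide in the other classes. Levels were taken from each class as a whole, by adding up its cells, and are given per 1000000 UMIs (CPM). A CPM here counts 3′ ends, so it does not grow with transcript length.

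Dot1l was read first, as a check of the labels. It stood at 30.7 CPM in cKO and 57.3 CPM in control spermatogonium-like cells, at 56.8 (cKO) and 58.8 (control) CPM in early and 50.8 (cKO) and 113 (control) CPM in mid to late spermatocyte-like cells, and at 4.93 (cKO) and 37.4 (control) CPM in round spermatid-like cells. The spermatogonium-like class had a log2 ratio of cKO over control of −0.90 (−1.31 to −0.50), the early spermatocyte-like class −0.05 (−0.20 to 0.10), the mid to late one −1.15 (−1.23 to −1.08) and the round spermatid-like class −2.93 (−3.20 to −2.67). In somatic cells it was −0.52 (−1.38 to 0.42), and in elongating spermatid-like cells the 33 cKO and 85 control UMIs were fewer than the 134 cKO and 227 control UMIs that free RNA would give. Dot1l was thus lower in the cKO in 3 of these 4 earlier germ cell classes, and in early spermatocyte-like and somatic cells the interval includes 0. A 3′ tag can lie outside the deleted part and also counts transcripts that lack it, so these levels do not measure DOT1L protein.

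In both libraries most division genes were highest in spermatogonium-like cells. That class held the highest level of 16 of 30 members in the cKO and 17 in the control library, early spermatocyte-like cells that of 7 and 5, and mid to late spermatocyte-like cells that of 6 and 8. The share of all genes highest in each class was not counted, so these counts are not set against genes at large. Round spermatid-like cells held it for 1 member in the cKO, Ccnb2, and for 0 in the control, and elongating spermatid-like cells for 0 in both. The class was the same in both libraries for 25 of 30 members, the exceptions being Ccnb2, Ccne1, Cdk2, Cdc20 and Espl1.

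**Figure D1:**
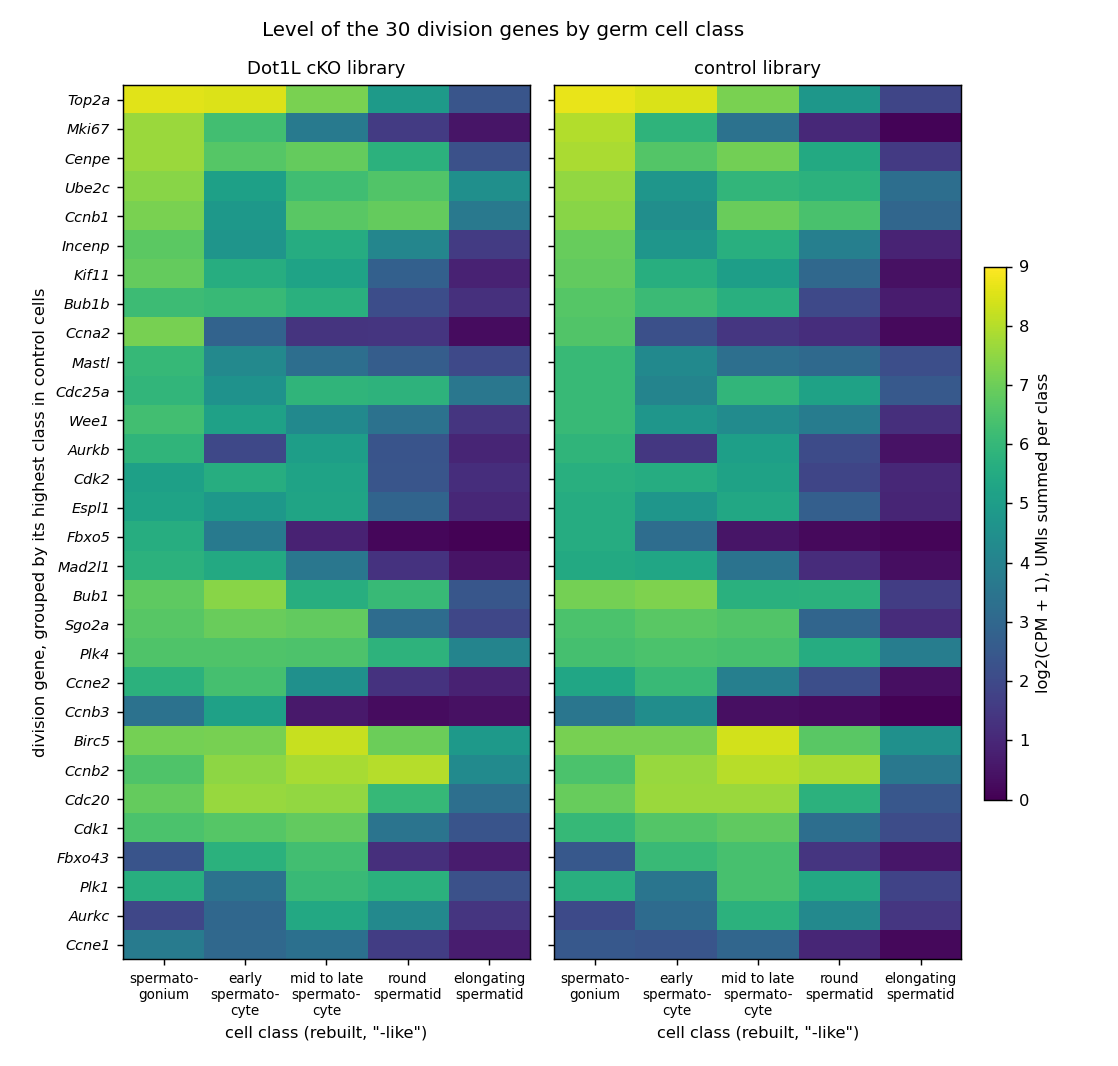
Level of each division gene (rows) in 5 germ cell classes (columns) as log2(CPM + 1) of summed UMIs, in the Dot1L cKO library (left) and the control library (right), with rows grouped by the highest class in control cells. Fbxo43 and Aurkc are dark in spermatogonium-like cells and brighter in mid to late spermatocyte-like cells, Fbxo5 and Ccna2 the reverse, and Ccnb2 stays bright in round spermatid-like cells.

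Steps between classes were read within each library by a rule of size, over 2-fold, among genes with 50 or more UMIs over both classes. In early spermatocyte-like against spermatogonium-like cells 3 of 30 members were higher in the cKO library, where 21.4% of all genes were, and 13 were lower (27.2% of all genes). In the control library 3 of 30 were higher (23.8% of all genes) and 13 lower (27.6%). The lower members were the same 13 in both libraries: Ccnb1, Ccna2, Plk1, Aurkb, Incenp, Fbxo5, Cdc25a, Mastl, Wee1, Kif11, Ube2c, Mki67 and Cenpe. In mid to late against early spermatocyte-like cells 7 members were higher and 9 lower of 30 in the cKO library (19.0% and 31.9% of all genes), and 7 and 9 of 30 in the control (21.7% and 32.5%). The 7 higher members were the same in both: Ccnb1, Plk1, Aurkb, Aurkc, Birc5, Cdc25a and Ube2c. Of these, 5 (all but Aurkc and Birc5) were among the 13 that were lower at the step before. Their levels thus fell from spermatogonium-like to early spermatocyte-like cells and rose again in mid to late spermatocyte-like cells. The return differed: of the 5, Plk1 alone rose above its spermatogonium-like level, and Ube2c stayed over 2-fold below its own.

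In round spermatid-like against mid to late spermatocyte-like cells 0 of 28 members were higher in the cKO (30% of all genes) and 0 of 28 in the control library (31.5%). Lower were 18 in the cKO (34.9% of all genes) and the same 18 in the control (39.3%). The median log2 ratio was −1.51 for members and −0.32 for all genes in the cKO, and −1.88 and −0.46 in the control. In elongating against round spermatid-like cells 25 of 27 members were lower in the cKO (63.4% of all genes) and 26 of 26 in the control (66.2%), and 0 were higher in either (11% and 8.91%). In elongating spermatid-like cells 26 members in the cKO and 25 in the control library had no more UMIs than free RNA would give, so their levels there are not read as expression.

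Mid to late spermatocyte-like against spermatogonium-like cells set meiotic against mitotic germ cells. Higher in the spermatocytes were 4 of 30 members in the cKO (29.2% of all genes) and 4 of 29 in the control library (31.3%), and in both these were Ccnb2, Aurkc, Birc5 and Fbxo43. Lower were 13 in the cKO (40.2% of all genes) and 12 in the control (39.7%). The 12 were Ccna2, Ccne2, Bub1, Mad2l1, Incenp, Fbxo5, Mastl, Wee1, Kif11, Top2a, Ube2c and Mki67, and Ccnb3 joined them in the cKO. In the control library Ccnb3 had too few UMIs to be measured, 21 in spermatogonium-like and 12 in mid to late spermatocyte-like cells. Its control levels of 10.6 and 0.306 CPM also fell, beside 9.38 and 0.524 CPM in the cKO. In round spermatid-like against spermatogonium-like cells Ccnb2 and Aurkc were the 2 higher members of 28 in each library (37.3% of all genes in the cKO and 40.1% in the control), and 18 were lower in the cKO (39.4%) and 21 in the control (39.4%).

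Finer steps were read in 9 clusters held by both libraries, which were chosen and put in order after they were seen, by Piwil1 (a pachytene gene), Ccna1 (a cyclin of late spermatocytes) and Acrv1 (an acrosomal gene of spermatids). Cluster 15 is the spermatogonium-like class. Clusters 5 and 12 are early spermatocyte-like, with Piwil1 at 23.1 and 829 CPM over both libraries. Clusters 24, 20, 29 and 11 are mid to late spermatocyte-like, with Ccna1 at 42.9, 181, 289 and 247 CPM. Cluster 13, which has no class, has Ccna1 at 185 and Acrv1 at 288 CPM, and cluster 8 is round spermatid-like, with Acrv1 at 432 CPM. Cluster 32, also mid to late spermatocyte-like, with 66 cKO and 33 control cells, was left out of the order. Clusters 15, 5, 12, 24, 20, 29, 11, 13 and 8 held 473 cKO and 254 control, 696 cKO and 352 control, 461 cKO and 331 control, 255 cKO and 180 control, 294 cKO and 222 control, 113 cKO and 197 control, 363 cKO and 436 control, 356 cKO and 405 control and 368 cKO and 553 control cells in that order.

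**Figure D2:**
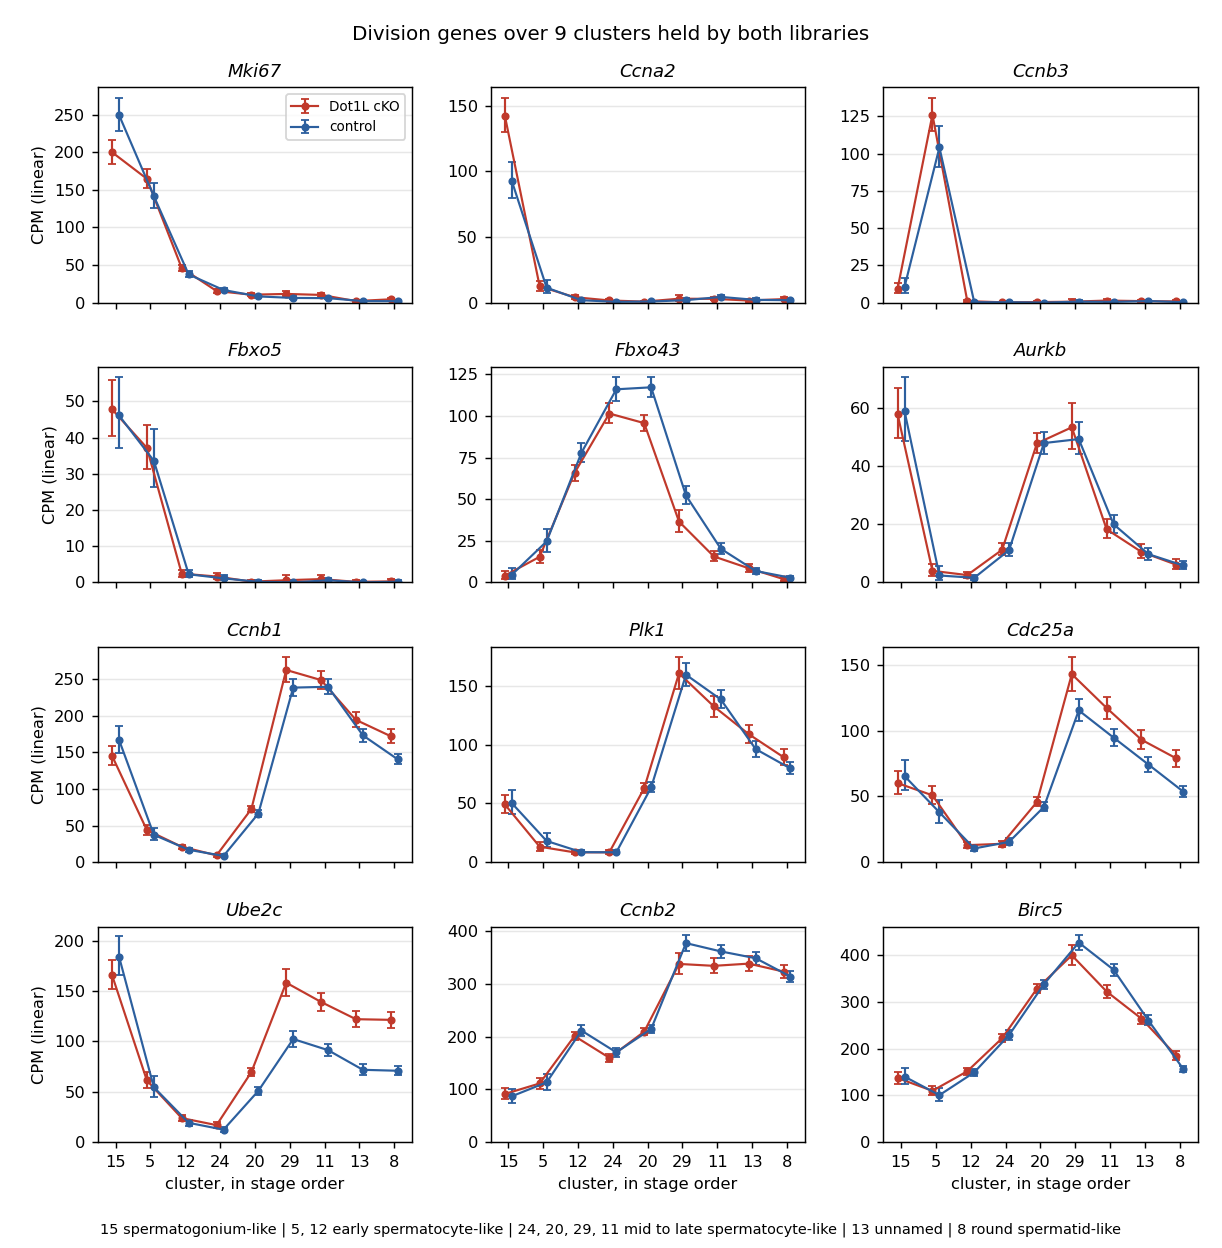
CPM (linear axis from 0) of 12 division genes over 9 clusters in stage order, in Dot1L cKO (red) and control (blue) cells, with 95% Poisson intervals of counting error. Ccna2, Fbxo5 and Ccnb3 are near 0 from cluster 12 on, Fbxo43 is highest in clusters 24 and 20, and Ccnb1, Plk1, Cdc25a and Ube2c are low in clusters 12 and 24 and high again in cluster 29. Ube2c lies higher in cKO cells from cluster 12 on.

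Because Ccnb1, Plk1, Cdc25a and Ube2c shared this dip and return, the 250 bases before their starts are shown, beside those of Aurkc, which was low in spermatogonium-like cells and higher in mid to late spermatocytes. The sequences are from RefSeq on GRCm38.p6 and run 5′ to 3′ on the gene's strand. Capitals mark CCAAT, the letters bound by the factor NF-Y, and TTTGAA or TTCGAA, forms of the CHR element of genes of G2 and M phase, on either strand.
Ccnb1, chr13:100786487-100786736, minus strand: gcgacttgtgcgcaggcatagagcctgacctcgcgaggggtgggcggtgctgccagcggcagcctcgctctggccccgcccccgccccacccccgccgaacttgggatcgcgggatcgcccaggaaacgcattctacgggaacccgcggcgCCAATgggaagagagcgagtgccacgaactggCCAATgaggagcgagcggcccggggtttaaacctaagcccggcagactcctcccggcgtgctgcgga
Plk1, chr7:122159185-122159434, plus strand: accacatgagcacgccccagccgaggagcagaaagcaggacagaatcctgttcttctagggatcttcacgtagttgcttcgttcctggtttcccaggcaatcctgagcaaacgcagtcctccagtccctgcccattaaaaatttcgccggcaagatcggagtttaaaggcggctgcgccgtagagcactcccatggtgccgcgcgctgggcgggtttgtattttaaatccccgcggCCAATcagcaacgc
Cdc25a, chr9:109875329-109875578, plus strand: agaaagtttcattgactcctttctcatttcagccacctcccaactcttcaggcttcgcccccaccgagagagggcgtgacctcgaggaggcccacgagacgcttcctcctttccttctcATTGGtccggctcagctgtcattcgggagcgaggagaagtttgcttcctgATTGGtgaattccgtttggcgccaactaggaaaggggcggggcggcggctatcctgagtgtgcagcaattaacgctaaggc
Ube2c, chr2:164769679-164769928, plus strand: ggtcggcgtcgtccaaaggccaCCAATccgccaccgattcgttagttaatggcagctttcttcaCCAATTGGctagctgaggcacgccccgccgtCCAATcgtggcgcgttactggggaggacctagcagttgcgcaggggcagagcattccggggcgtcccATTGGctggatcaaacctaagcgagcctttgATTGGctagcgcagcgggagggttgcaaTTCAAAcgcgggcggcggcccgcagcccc
Aurkc, chr7:6995135-6995384, plus strand: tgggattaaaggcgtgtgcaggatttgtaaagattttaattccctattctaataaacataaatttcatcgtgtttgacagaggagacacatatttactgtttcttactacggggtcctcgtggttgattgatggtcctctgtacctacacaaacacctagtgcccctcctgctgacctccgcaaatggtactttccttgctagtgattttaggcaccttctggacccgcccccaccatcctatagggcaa
Ube2c holds 6 CCAAT matches, 1 pair of them overlapping on opposite strands, and a TTTGAA match on the other strand 29 bases before its start. Ccnb1 and Cdc25a hold 2 CCAAT matches each and no CHR letters. Plk1 holds 1 CCAAT match 14 bases before its start, and a TTTGAA match lies 31 bases after the start, outside the stretch shown. Aurkc holds no match in the stretch shown and 1 CCAAT match 25 bases after its start. Windows of 300 bases (250 before to 50 after the start) were found for 24 of the 30 members. CCAAT was in those of 19 of 24 members, against 37.4% of all 32851 windows. TTTGAA was in 11 (17.9% of all windows), TTCGAA in 3 (1.56%), AACNG, the core of MYB family sites, in 21 (80.3%) and TGACGTCA, the CRE, in 1, Cenpe (1.79%), each on both strands with overlaps allowed. A CHR form and CCAAT stood together in 12 members, against 7.52% of all windows: Bub1, Bub1b, Ccnb2, Cdc20, Cdk1, Espl1, Fbxo5, Kif11, Mki67, Plk1, Top2a and Ube2c. These are matches of letters and are not shown to be binding sites.

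The B-type cyclins differed in stage. Ccnb1, a partner of CDK1, stood at 145 CPM (133 to 159) in cKO and 167 CPM (149.8 to 186) in control spermatogonium-like cells, at 103 (cKO) and 121 (control) CPM in mid to late spermatocyte-like cells and at 115 (cKO) and 84.5 (control) CPM in round spermatid-like cells. By cluster it was lowest in cluster 24, with 9.30 (cKO) and 8.46 (control) CPM, and high in clusters 29 and 11, with 263 (cKO) and 239 (control) CPM and 249 (cKO) and 239.8 (control) CPM. Ccnb2, another partner of CDK1, had no such low. It stood at 91 CPM in cKO and 86.7 CPM in control spermatogonium-like cells, at 177 (cKO) and 193 (control) CPM in early and 228 (cKO) and 264 (control) CPM in mid to late spermatocyte-like cells, and at 258 (cKO) and 226 (control) CPM in round spermatid-like cells. Of the 291 cKO and 171 control UMIs of Ccnb2 in spermatogonium-like cells, 155 cKO and 57.7 control UMIs are what free RNA would give, and the part of free RNA in the level was not tested.

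Ccnb3, a B-type cyclin of early meiotic prophase in the mouse, stood out in a single cluster. It was at 126 CPM in cKO and 104 CPM in control cells of cluster 5, and at 0.985 (cKO) and 0.224 (control) CPM in cluster 12. By class it was at 9.38 (cKO) and 10.6 (control) CPM in spermatogonium-like cells (30 cKO and 21 control UMIs), 34.2 (cKO) and 20.1 (control) CPM in early and 0.524 (cKO) and 0.306 (control) CPM in mid to late spermatocyte-like cells (20 cKO and 12 control UMIs in the later class), and 0.227 (cKO) and 0.240 (control) CPM in round spermatid-like cells (6 cKO and 9 control UMIs). Ccna2, the cyclin of S and G2 phase, was spermatogonial. It was at 143 CPM in cKO and 92.8 CPM in control spermatogonium-like cells, 1.57 (cKO) and 1.69 (control) CPM in mid to late spermatocyte-like cells and 1.59 (cKO) and 1.25 (control) CPM in round spermatid-like cells.

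The E-type cyclins, partners of CDK2, were highest early or low throughout. Ccne2 was at 53.8 CPM in cKO and 39.0 CPM in control spermatogonium-like cells, reached 97.6 (cKO) and 89.9 (control) CPM in cluster 5, and was at 21.9 (cKO) and 13.9 (control) CPM in mid to late spermatocyte-like and 1.52 (cKO) and 3.44 (control) CPM in round spermatid-like cells. Ccne1 stayed under 20 CPM in each germ cell class, with 12.5 (cKO) and 4.56 (control) CPM in spermatogonium-like cells (40 cKO and 9 control UMIs), 8.96 (cKO) and 6.92 (control) CPM in mid to late spermatocyte-like cells and 2.12 (cKO) and 0.961 (control) CPM in round spermatid-like cells. Cdk2, a kinase that also sits at telomeres in meiotic prophase, was at 33.8 CPM in cKO and 50.7 CPM in control spermatogonium-like cells, 36.1 (cKO) and 35.8 (control) CPM in mid to late spermatocyte-like cells and 4.21 (cKO) and 2.70 (control) CPM in round spermatid-like cells. Cdk1, the kinase of both divisions, was at 86 CPM in cKO and 63.9 CPM in control spermatogonium-like cells, 112 (cKO) and 111 (control) CPM in mid to late spermatocyte-like cells and 10.1 (cKO) and 8.49 (control) CPM in round spermatid-like cells. Cdk1 was lower in the spermatid cluster than before it, and Ccnb2 less so: in cluster 29 Cdk1 was at 168 (cKO) and 170.3 (control) CPM and Ccnb2 at 338 (cKO) and 378 (control) CPM, and in cluster 8 they were at 19.0 (cKO) and 17.4 (control) CPM and 324 (cKO) and 314 (control) CPM.

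Regulators of CDK1 took different courses. Cdc25a, a phosphatase that activates CDKs, was at 60.1 CPM in cKO and 65.4 CPM in control spermatogonium-like cells, 58.0 (cKO) and 59.4 (control) CPM in mid to late spermatocyte-like cells and 54.9 (cKO) and 35.8 (control) CPM in round spermatid-like cells. Within the spermatocytes it had its low of 12.9 (cKO) and 10.4 (control) CPM in cluster 12 and its high of 143 (cKO) and 115 (control) CPM in cluster 29. Wee1, the kinase that holds CDK1 inactive, was at 76.9 CPM in cKO and 65.4 CPM in control spermatogonium-like cells, 18.5 (cKO) and 19.2 (control) CPM in mid to late spermatocyte-like and 9.55 (cKO) and 12.6 (control) CPM in round spermatid-like cells. Mastl (Greatwall), which restrains the opposing phosphatase, was at 63.8 (cKO) and 66.4 (control) CPM, 8.46 (cKO) and 8.76 (control) CPM and 5.27 (cKO) and 7.37 (control) CPM in these classes, with 22.7% of its 3′ end shared with other genes, so its counts are uncertain. Unlike Cdc25a, Wee1 and Mastl were thus much lower in mid to late spermatocyte-like than in spermatogonium-like cells. In the early spermatocytes of cluster 5 Wee1 was still at 62.0 (cKO) and 50.2 (control) CPM and Mastl at 28.7 (cKO) and 33.1 (control) CPM.

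Of the Polo kinases, Plk1, which acts at spindle poles and kinetochores, was at 49.1 CPM in cKO and 50.2 CPM in control spermatogonium-like cells, 67.9 (cKO) and 83.1 (control) CPM in mid to late spermatocyte-like and 53.3 (cKO) and 41.7 (control) CPM in round spermatid-like cells. It was at 8.35 (cKO) and 8.35 (control) CPM in cluster 24 and at 161 (cKO) and 159 (control) CPM in cluster 29. Plk4, which starts centriole duplication, had the smallest ratio of highest to lowest level over the 9 clusters of the 30 members, between 65.7 and 104 CPM in cKO and between 60.9 and 98.9 CPM in control cells. Its class levels were 91 (cKO) and 81.1 (control) CPM in spermatogonium-like, 87.7 (cKO) and 81.7 (control) CPM in mid to late spermatocyte-like and 55.2 (cKO) and 46.9 (control) CPM in round spermatid-like cells.

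The chromosomal passenger complex corrects faulty attachments of chromosomes to the spindle. Aurkb, its kinase in mitosis, was at 57.9 CPM in cKO and 58.8 CPM in control spermatogonium-like cells, 2.89 (cKO) and 1.72 (control) CPM in early and 31.9 (cKO) and 32.8 (control) CPM in mid to late spermatocyte-like cells, and 4.05 (cKO) and 3.18 (control) CPM in round spermatid-like cells. Within the later spermatocytes it was at 47.8 (cKO) and 47.9 (control) CPM in cluster 20 and 53.3 (cKO) and 49.3 (control) CPM in cluster 29. Aurkc, the kinase added in germ cells, was at 2.81 CPM in cKO and 3.04 CPM in control spermatogonium-like cells (9 cKO and 6 control UMIs, no more than free RNA would give), 42.6 (cKO) and 53.5 (control) CPM in mid to late spermatocyte-like and 18.0 (cKO) and 17.8 (control) CPM in round spermatid-like cells. Its counts are uncertain, since 70.9% of its 3′ end is shared with the predicted genes Gm12463, Gm6909 and Gm7789. With that limit on Aurkc, UMIs of both genes were counted above the free RNA estimate in the later spermatocytes. In spermatogonium-like cells those of Aurkb alone were.

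Incenp, the scaffold of the complex, was at 105 CPM in cKO and 119 CPM in control spermatogonium-like cells, 46.9 (cKO) and 50.1 (control) CPM in mid to late spermatocyte-like and 16.7 (cKO) and 13.8 (control) CPM in round spermatid-like cells. Birc5 (survivin), which brings the complex to centromeres, was at 137 CPM in cKO and 140.0 CPM in control spermatogonium-like cells, 301 (cKO) and 333 (control) CPM in mid to late spermatocyte-like and 126 (cKO) and 102 (control) CPM in round spermatid-like cells. The log2 ratio of mid to late spermatocyte-like over spermatogonium-like cells for Birc5 was 1.13 (1.0 to 1.28) in the cKO and 1.25 (1.08 to 1.43) in the control library.

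Checkpoint proteins hold anaphase until chromosomes are attached, and their genes did not keep together. Bub1, a kinase of the kinetochore, was at 108 CPM in cKO and 137 CPM in control spermatogonium-like cells, 369.8 (cKO) and 338 (control) CPM in cluster 5, 48.7 (cKO) and 51.0 (control) CPM in mid to late spermatocyte-like and 66.1 (cKO) and 52.7 (control) CPM in round spermatid-like cells. Bub1b (BubR1), an inhibitor of the APC/C, was at 71.6 CPM in cKO and 98.4 CPM in control spermatogonium-like cells, 50.9 (cKO) and 50.1 (control) CPM in mid to late spermatocyte-like and 3.41 (cKO) and 2.99 (control) CPM in round spermatid-like cells. Mad2l1 (MAD2), which binds CDC20, was at 53.5 (cKO) and 43.1 (control) CPM, 10.8 (cKO) and 9.71 (control) CPM and 1.52 (cKO) and 1.23 (control) CPM in these classes. In round spermatid-like over spermatogonium-like cells the log2 ratio of Bub1 was −0.71 in the cKO and −1.38 in the control library, that of Bub1b −4.39 and −5.04, and that of Mad2l1 −5.14 and −5.13, so Bub1 was the least reduced of the 3 in spermatids. Cenpe, a motor of the kinetochore, was at 199.5 CPM in cKO and 229 CPM in control spermatogonium-like cells, 115 (cKO) and 134 (control) CPM in mid to late spermatocyte-like and 53.9 (cKO) and 43.0 (control) CPM in round spermatid-like cells. Kif11 (Eg5), the motor that parts the spindle poles, was at 116 (cKO) and 113 (control) CPM, 35.9 (cKO) and 32.0 (control) CPM and 5.80 (cKO) and 7.16 (control) CPM, and 18.0% of its 3′ end is shared.

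The inhibitors of the APC/C changed places between mitotic and meiotic cells. Fbxo5 (EMI1), the inhibitor of mitotic cells, was at 47.9 CPM (40.6 to 56.1) in cKO and 46.1 CPM (37.2 to 56.7) in control spermatogonium-like cells, 0.838 (cKO) and 0.434 (control) CPM in mid to late spermatocyte-like cells (32 cKO and 17 control UMIs) and 0.114 (cKO) and 0.160 (control) CPM in round spermatid-like cells (3 cKO and 6 control UMIs). Fbxo43 (EMI2), its meiotic relative, was at 4.07 CPM (2.16 to 6.95) in cKO and 4.56 CPM (2.09 to 8.66) in control spermatogonium-like cells. Those levels rest on 13 cKO and 9 control UMIs, beside 25.4 cKO and 9.32 control UMIs that free RNA would give. In later cells Fbxo43 was at 75.8 CPM (73.1 to 78.6) in cKO and 83.1 CPM (80.3 to 86) in control mid to late spermatocyte-like cells, and at 1.33 (cKO) and 1.63 (control) CPM in round spermatid-like cells. The log2 ratio of mid to late spermatocyte-like over spermatogonium-like cells was 4.22 in the cKO and 4.19 in the control library for Fbxo43, and −5.84 and −6.73 for Fbxo5.

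Other genes of anaphase were present in both spermatogonium-like and spermatocyte-like cells. Cdc20, which activates the APC/C, was at 117 CPM in cKO and 118 CPM in control spermatogonium-like cells, 186 (cKO) and 201 (control) CPM in mid to late spermatocyte-like and 64.3 (cKO) and 53.7 (control) CPM in round spermatid-like cells. Ube2c, the ubiquitin-conjugating enzyme that starts the chains the APC/C makes, was at 166 CPM (152 to 181) in cKO and 185 CPM (166 to 205) in control spermatogonium-like cells, 74.7 (cKO) and 59.3 (control) CPM in mid to late spermatocyte-like and 93.5 (cKO) and 54.2 (control) CPM in round spermatid-like cells. Espl1 (separase), the protease that cuts cohesin, was at 36.0 CPM in cKO and 47.2 CPM in control spermatogonium-like cells, 37.6 (cKO) and 41.2 (control) CPM in mid to late spermatocyte-like and 6.55 (cKO) and 5.61 (control) CPM in round spermatid-like cells. Sgo2a, a shugoshin that shields centromeric cohesin in meiosis I, was at 101 CPM in cKO and 86.7 CPM in control spermatogonium-like cells, 114 (cKO) and 93.2 (control) CPM in mid to late spermatocyte-like and 7.99 (cKO) and 6.70 (control) CPM in round spermatid-like cells. In round spermatid-like over spermatogonium-like cells the log2 ratio of Sgo2a was −3.66 in the cKO and −3.69 in the control library, and that of Cdc20 −0.86 and −1.14.

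Top2a and Mki67 are widely used as signs of cycling cells. Top2a, which untangles sister DNA, was at 385 CPM in cKO and 413 CPM in control spermatogonium-like cells, 659 (cKO) and 654 (control) CPM in cluster 5, 144 (cKO) and 146 (control) CPM in mid to late spermatocyte-like and 29.1 (cKO) and 26.2 (control) CPM in round spermatid-like cells. Mki67, which coats mitotic chromosomes, was at 199.9 CPM in cKO and 249 CPM in control spermatogonium-like cells, 12.2 (cKO) and 9.6 (control) CPM in mid to late spermatocyte-like and 1.93 (cKO) and 1.04 (control) CPM in round spermatid-like cells, with 8.31% of its 3′ end shared. The log2 ratio of mid to late spermatocyte-like over spermatogonium-like cells was −4.04 in the cKO and −4.70 in the control library for Mki67, and −1.42 and −1.50 in the same libraries for Top2a.

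Shares of cells with a UMI were compared after each cell was thinned to 2000 UMIs. Top2a was seen in 42.0% (37.0 to 47.1) of 381 cKO and 43.2% (36.0 to 50.5) of 190 control spermatogonium-like cells, in 56.5% (53.6 to 59.4) of 1146 cKO and 57.2% (53.3 to 60.9) of 677 control early spermatocyte-like cells, in 22.2% (19.8 to 24.8) of 1090 cKO and 22.3% (19.8 to 24.9) of 1068 control mid to late spermatocyte-like cells and in 7.54% (6.10 to 9.19) of 1181 cKO and 5.50% (4.41 to 6.76) of 1528 control round spermatid-like cells. Somatic cells, where free RNA gives much of the signal, showed it in 5.38% (3.16 to 8.47) of 316 cKO and 4.17% (0.868 to 11.7) of 72 control somatic cells. The Top2a shares in round spermatids overlapped those intervals. At equal depth free RNA weighs more in somatic cells, so this overlap does not decide whether the gene was expressed. The estimate of 1863 UMIs per cKO cell stands beside medians of 1973 UMIs in cKO somatic and 19830 in cKO round spermatid-like cells. Summed Top2a UMIs in round spermatids were 768 cKO and 981 control, where free RNA would give 229 cKO and 168 control. Ccnb2 was seen in 40.0% (37.2 to 42.8) of 1181 cKO and 37.0% (34.6 to 39.5) of 1528 control round spermatid-like cells, against 10.1% (7.03 to 14.0) of 316 cKO and 5.56% (1.53 to 13.6) of 72 control somatic cells. Ube2c was seen in 17.6% (15.5 to 19.9) of 1181 cKO and 11% (9.47 to 12.7) of 1528 control round spermatid-like cells, against 3.80% of cKO somatic cells and 0 of 72 control ones, which allows a share of up to 4.17%. Fbxo43 was seen in 10.8% (9.04 to 12.8) of 1090 cKO and 13.2% (11.2 to 15.4) of 1068 control mid to late spermatocyte-like cells, against 0 of 316 cKO somatic cells, which allows up to 0.949%, and 0 of 72 control ones.

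At 2000 UMIs a cell showed a mean of 4.46 in cKO and 4.38 in control of the 30 members in spermatogonium-like cells, 3.95 (cKO) and 3.73 (control) in early and 3.59 (cKO) and 3.77 (control) in mid to late spermatocyte-like cells, 1.91 (cKO) and 1.57 (control) in round and 0.349 (cKO) and 0.217 (control) in elongating spermatid-like cells, beside 0.699 (cKO) and 0.639 (control) in somatic cells. Within the spermatocytes the mean went through a low of 2.68 in cKO and 2.69 in control cells of cluster 24 and a high of 4.89 in cKO and 4.73 in control cells of cluster 29. In cluster 29, 57.1% (47.4 to 66.5) of cKO and 51.8% (44.6 to 58.9) of control cells showed 5 or more members. Cells under 2000 UMIs were left out, 92 cKO and 64 control in the spermatogonium-like class, 11 cKO and 6 control in the early spermatocyte-like class, 142 cKO and 91 control in the elongating spermatid-like class and 323 cKO and 120 control among somatic cells, and at most 1 in the other classes.

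Between the genotypes, few division genes of spermatogonia and spermatocytes passed the rule of size. That rule was a CPM ratio over 1.5-fold among genes with 50 or more UMIs over both libraries. In spermatogonium-like cells 1 of 27 measured members was higher in the cKO (10.7% of all genes) and 1 lower (5.37%). These were Ccna2 (log2 ratio 0.62, 0.37 to 0.88) and Cdk2 (−0.59, −0.99 to −0.18). In early spermatocyte-like cells 4 of 30 were higher (12.2% of all genes) and 0 lower (2.57%). The higher ones were Ccna2 (0.80, 0.26 to 1.37), Ccne1 (0.78, 0.28 to 1.31), Ccnb3 (0.77, 0.54 to 1.0) and Aurkb, whose interval includes 0 (0.75, −0.05 to 1.61). With clusters 5 and 12 given the same weight in both libraries, Ccna2 was at 0.29, Ccne1 at 0.58 and Ccnb3 at 0.28, all short of 1.5-fold. Aurkb at 0.72 was then the 1 member past it, where 10.4% of all genes were higher. Its level in this class rests on 44 cKO and 19 control UMIs, beside 28.2 cKO and 10.1 control UMIs that free RNA would give. Of the mid to late class, 1 of 28 was higher (13.2% of all genes), Ccne2 (0.66, 0.50 to 0.82), and 0 were lower (4.74%). That call was lost with the same weights (Ccne2 at 0.48, 0 members past the rule), with median-of-ratios totals and at resolution 2.0, and within clusters 24, 20, 29 and 11 Ccne2 was at 0.49, 0.08, 0.24 and 0.86. The members' median log2 ratio in these 3 classes was −0.03, 0.07 and −0.05, beside −0.01, 0.05 and 0.07 for all genes. The shares of members past the rule were thus near or below those of all genes in each class.

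In spermatids more genes differed, among members and among all genes. In round spermatid-like cells 5 of 28 members were higher in the cKO (21.8% of all genes) and 1 was lower (11.1%). The higher ones were Ccne1 (1.14, 0.51 to 1.79), Mki67 (0.89, 0.26 to 1.53), Ube2c (0.79, 0.70 to 0.87), Cdk2 (0.64, 0.24 to 1.04) and Cdc25a (0.61, 0.51 to 0.72), and the lower one was Ccne2 (−1.18, −1.73 to −0.66). Free RNA would give 38.1 cKO and 20.9 control UMIs of the 51 cKO and 39 control UMIs of Mki67 there, 42.3 cKO and 30.9 control UMIs of the 111 cKO and 101 control UMIs of Cdk2, and 39.2 cKO and 21.4 control UMIs of the 40 cKO and 129 control UMIs of Ccne2. With the estimate subtracted, Cdk2 was at 0.52, short of 1.5-fold, Mki67 had too few UMIs left to be measured, and Ccne1 (1.12), Ube2c (0.81) and Cdc25a (0.64) stayed past it. The higher members were a smaller share than the higher genes overall. The median was 0.26 for members and 0.15 for all genes. In elongating spermatid-like cells 11 of 20 measured members were higher (31.5% of all genes) and 0 lower (5.49%), with medians of 0.68 and 0.32. The UMIs that free RNA would give there came to 189.9% of all member UMIs in the cKO and 156% in the control library. In somatic cells they came to 121% in the cKO and 120% in the control library. An estimate above the UMIs counted is too high, so it cannot say how much of that signal is free RNA. No expression is read from the count in elongating spermatid-like cells.

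**Figure D3:**
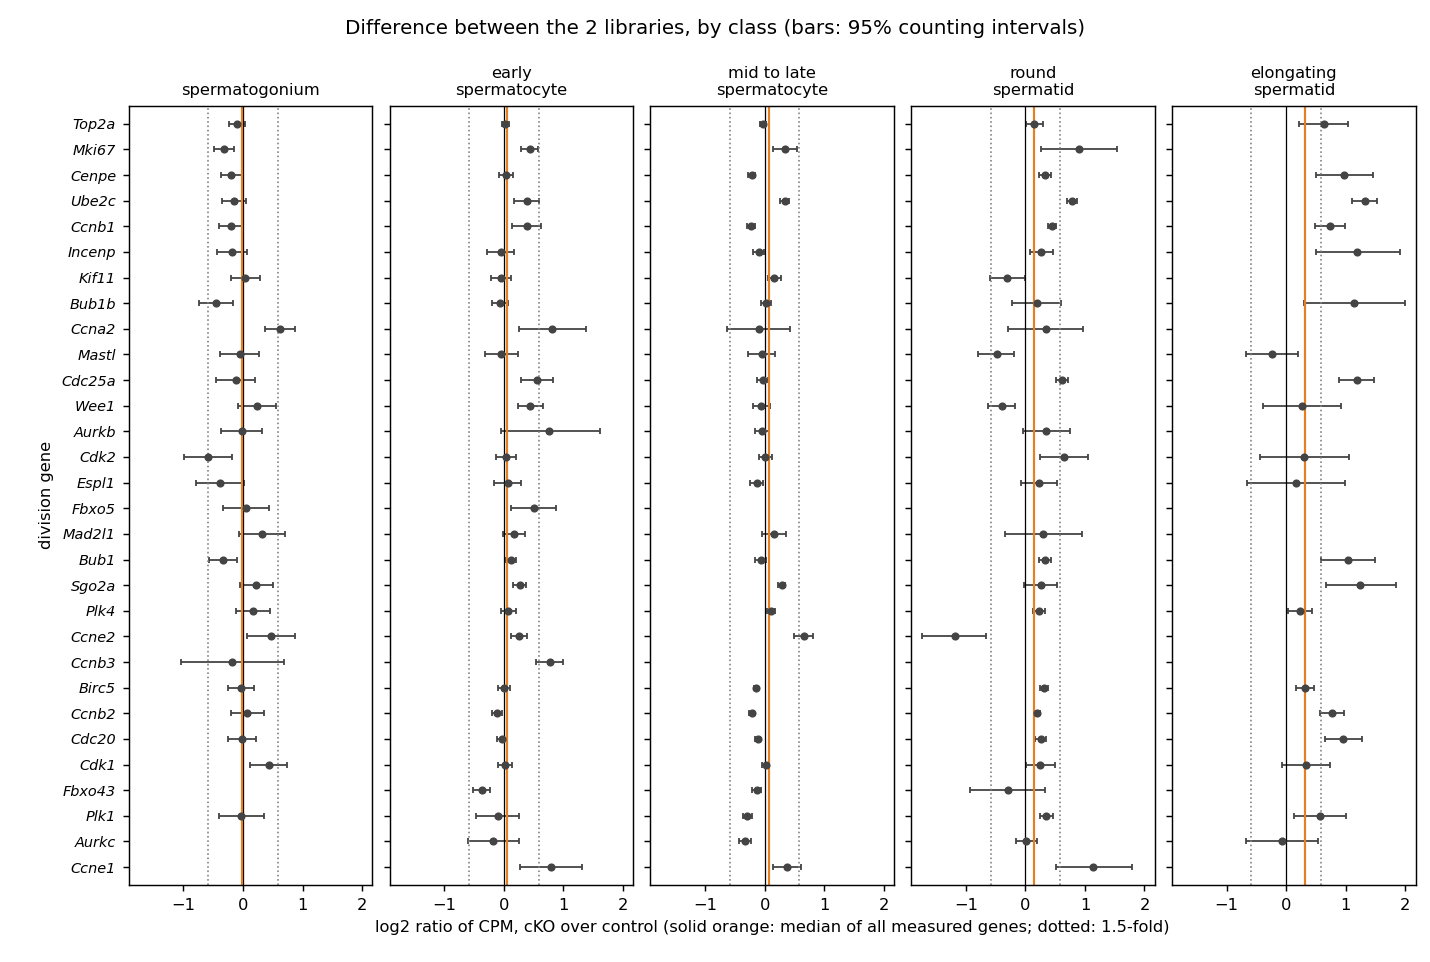
Log2 ratio of CPM, cKO over control, of each measured division gene in 5 classes, with 95% counting intervals as bars. Dotted lines mark 1.5-fold and the solid orange line the median of all measured genes. Most points lie between the dotted lines in the first 3 classes, and in round spermatid-like cells Ube2c (0.79) and Cdc25a (0.61) lie past them with narrow intervals.

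A class value mixes cells at different steps, and the libraries did not fill the clusters alike. Round spermatid-like cells of the libraries lay largely apart: cluster 17 held 527 cKO and 66 control cells, cluster 18 held 38 cKO and 536 control, cluster 26 held 2 cKO and 369 control and cluster 30 held 246 cKO and 4 control. Mid to late spermatocyte-like values also differed between the class and its clusters. Plk1, at −0.29 (−0.37 to −0.22) over the class, was at 0.00, −0.02, 0.01 and −0.06 within clusters 24, 20, 29 and 11. Ccnb1, at −0.23 (−0.29 to −0.17) over the class, was at 0.14, 0.13, 0.14 and 0.05 within them. With every cluster given the same weight in both libraries, over the 3 round spermatid-like clusters with 20 or more cells of each, the median ratio was 0.01 for members and 0.11 for all genes, beside 0.26 and 0.15 without weights. Ube2c was then at 0.55, Cdc25a at 0.47 and Cdk2 at 0.37, so these 3 higher members were no longer past 1.5-fold, and the lower value of Ccne2 did not hold (0.10). Past it were then 3 of 28 members higher (22.3% of all genes), Ccne1 (0.92), Mki67 (0.82) and Mad2l1 (0.95), and 1 lower (8.67%), Kif11 (−0.60). These values rest on few UMIs in clusters 17 and 18. Mad2l1 had 12 cKO and 0 control UMIs in cluster 17 and 2 cKO and 16 control in cluster 18. Mki67 had 10 cKO and 2 control in cluster 17 and 1 cKO and 9 control in cluster 18. Ccne1 had 18 cKO and 2 control in cluster 17, and Kif11 0 cKO and 60 control in cluster 18.

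Ube2c (chromosome 2, 164769898 to 164778822, plus strand, ENSMUSG00000001403, GRCm38) was higher in the cKO in the 7 clusters from 12 to 8 of the stage order. It was at 23.7 CPM in cKO and 19.0 CPM in control cells of cluster 12, 16.7 (cKO) and 12.2 (control) CPM in cluster 24, 69.6 (cKO) and 50.8 (control) CPM in cluster 20 and 159 (cKO) and 102 (control) CPM in cluster 29. It was at 139 (cKO) and 91.4 (control) CPM in cluster 11, 122 (cKO) and 71.8 (control) CPM in cluster 13 and 122 (cKO) and 70.8 (control) CPM in cluster 8. The log2 ratios were 0.32, 0.45, 0.45, 0.63, 0.61, 0.77 and 0.78, and all 7 intervals lay above 0. Of the 22 members measured in all 7 clusters Ube2c alone had this, against 8.08% of 7560 genes, and the run of clusters was chosen after the values were seen. In cluster 15 the libraries did not differ beyond counting error (−0.15, −0.35 to 0.04), nor in cluster 5 (0.17, −0.16 to 0.50). In somatic cells Ube2c had 56 cKO and 8 control UMIs (0.61, −0.47 to 1.89), beside 77.6 cKO and 10.6 control UMIs that free RNA would give. Of the other round spermatid-like clusters held by both libraries, cluster 17 had a ratio of 0.58 (0.28 to 0.90) and cluster 18 of −0.07 (−0.50 to 0.33), so the difference was not seen in cluster 18.

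Cdc25a was higher in the cKO with its interval above 0 in 5 of the 9 clusters. In cluster 5 it was at 50.8 (cKO) and 37.9 (control) CPM (0.42, 0.04 to 0.82). At the late end of the order it was at 143 (cKO) and 115 (control) CPM in cluster 29, 117 (cKO) and 94.7 (control) CPM in cluster 11, 93.1 (cKO) and 74.2 (control) CPM in cluster 13 and 78.9 (cKO) and 53.6 (control) CPM in cluster 8. The log2 ratios of these 4 were 0.31, 0.31, 0.33 and 0.56. Ccne1 was higher in all 8 clusters in which it was measured (0.34 to 1.47), 4 of them with intervals above 0. Sgo2a was higher in all 9 (0.11 to 0.43), 4 with intervals above 0. The counts of clusters in this paragraph were not made for all genes, so they are not read as particular to these members. The median log2 ratio of all genes was −0.01 in cluster 15 and 0.11 in cluster 8. Mki67 was lower in cKO cells of cluster 15, at 199.9 (cKO) and 249 (control) CPM (−0.32, −0.49 to −0.15), and higher in those of cluster 5, at 165 (cKO) and 142 (control) CPM (0.22, 0.02 to 0.42). It was higher in 6 and lower in 2 of the 8 clusters in which it was measured, with 5 intervals above 0 and 1 below. The others above 0 were clusters 12 (0.30), 29 (0.90), 11 (0.79) and 8 (1.21, on 33 cKO and 23 control UMIs).

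Fbxo43 (chromosome 15, 36150060 to 36164884, minus strand, ENSMUSG00000048230) was lower in the cKO through prophase. It was at 15.4 CPM in cKO and 24.6 CPM in control cells of cluster 5, 65.7 (cKO) and 77.9 (control) CPM in cluster 12, 101 (cKO) and 116 (control) CPM in cluster 24, 95.7 (cKO) and 117 (control) CPM in cluster 20, 36.5 (cKO) and 52.2 (control) CPM in cluster 29 and 15.6 (cKO) and 20.2 (control) CPM in cluster 11. The log2 ratios were −0.68, −0.25, −0.19, −0.29, −0.51 and −0.38, and all 6 intervals lay below 0. Of the 23 members measured in these 6 clusters Fbxo43 alone had this, against 2.08% of 6887 genes, and this run too was chosen after the values were seen. In cluster 13, which follows it, Fbxo43 was at 0.31 (−0.23 to 0.85). Wee1 was lower in the cKO at the end of the order, at 10.7 (cKO) and 16.9 (control) CPM in cluster 13 (−0.65, −1.07 to −0.24) and 9.25 (cKO) and 16.6 (control) CPM in cluster 8 (−0.84, −1.26 to −0.44), and higher in cluster 12, at 25.1 (cKO) and 19.8 (control) CPM (0.34, 0.06 to 0.62). Aurkc was lower in all 7 clusters in which it was measured (−0.46 to −0.03), with the shared 3′ end named above. How many of all genes were lower in this way was not counted.

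**Figure D4:**
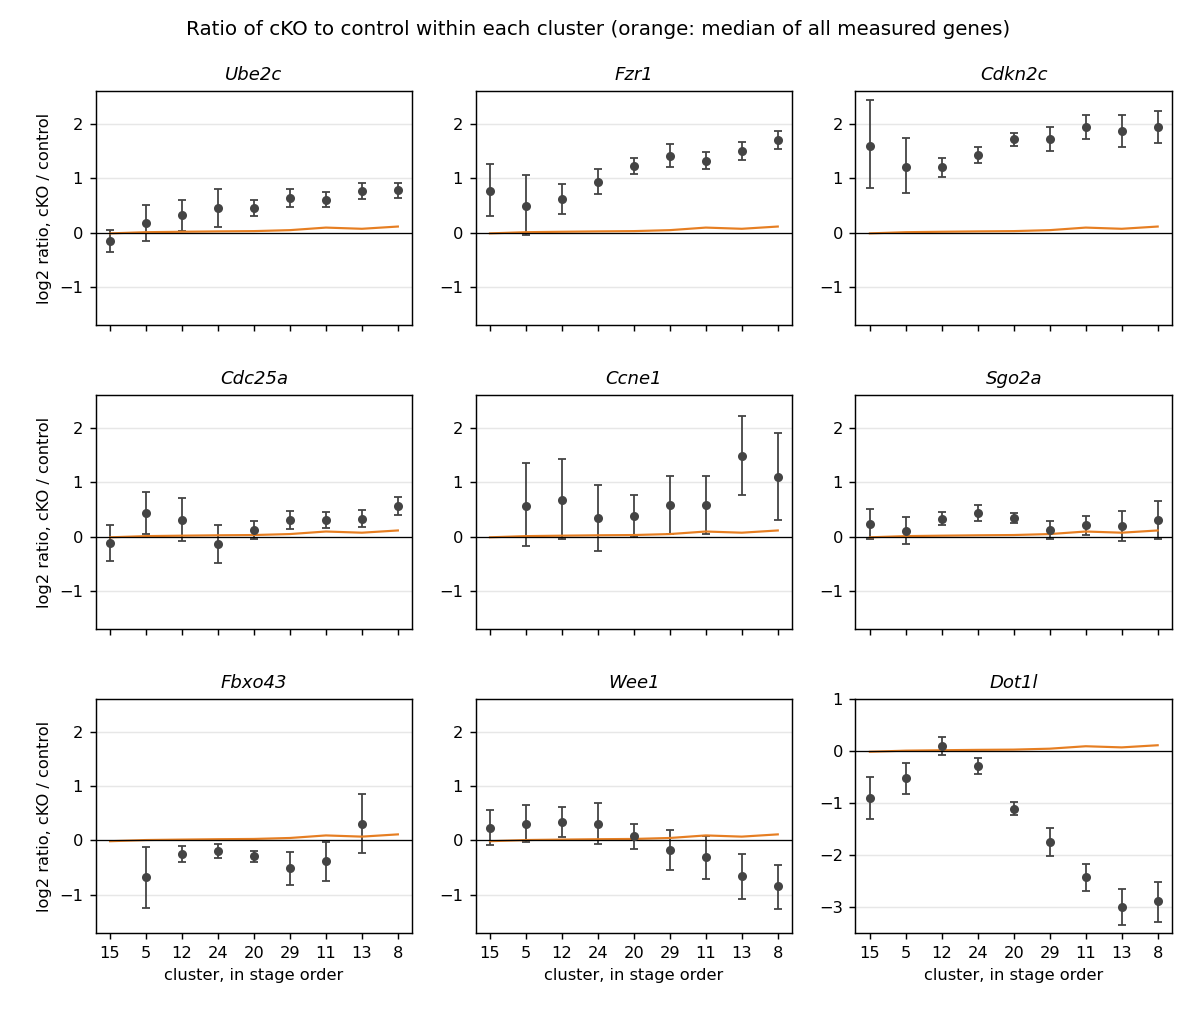
Log2 ratio of CPM, cKO over control, within each of 9 clusters in stage order, for 6 division genes, for Fzr1 and Cdkn2c of a wider list, and for Dot1l (on its own scale), with 95% counting intervals and the median of all measured genes in orange. A gene with under 50 UMIs in a cluster is left out there. Ube2c reaches 0.78 and Fzr1 1.70 in cluster 8, Fbxo43 lies below 0 in clusters 5 to 11 and above it in cluster 13, and Dot1l is at 0.09 in cluster 12 and −3.00 in cluster 13.

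Past 1.5-fold, single clusters gave few members. In clusters 24 and 20 it was 0 in either direction of 27 and 27 measured, where 8.84% and 10.4% of all genes were higher and 3.34% and 5.17% lower. In cluster 15, 1 of 27 was higher (10.7% of all genes) and 1 lower (5.37%), in cluster 5, 0 of 28 were higher (9.43%) and 1 lower (3.71%), and in cluster 12, 2 of 27 were higher (8.15%) and 0 lower (2.6%). In cluster 29, 3 of 25 were higher (12.2% of all genes) and 0 lower (4.79%). In cluster 11, 4 of 27 were higher (17.3%) and 1 lower (4.48%), in cluster 13, 2 of 24 were higher (15.9%) and 2 lower (6.07%), and in cluster 8, 4 of 24 were higher (19.1%) and 1 lower (7.47%). For these clusters the Dot1l log2 ratio is given too, which over all 9 clusters in order was −0.90, −0.52, 0.09, −0.28, −1.11, −1.75, −2.43, −3.00 and −2.89.

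A wider list of 124 division genes in 6 groups was counted by the same rule. In spermatogonium-like cells 4 of 116 measured were higher in the cKO past 1.5-fold (10.7% of all genes) and 2 lower (5.37%). In early spermatocyte-like cells 5 of 120 were higher (12.2%) and 0 lower (2.57%), and of the mid to late class 8 of 116 were higher (13.2%) and 2 lower (4.74%). In round spermatid-like cells 30 of 110 were higher (21.8%) and 3 lower (11.1%), and in elongating ones 36 of 89 were higher (31.5%) and 3 lower (5.49%). The medians were −0.09, 0.06, 0.07, 0.32 and 0.50, to be read beside those of all genes above. The DNA replication group had the highest median of the 6 in early spermatocyte-like cells (0.23, 3 higher and 0 lower of 20, beside the shares of all genes just given), and the cyclin and CDK group in mid to late spermatocyte-like cells (0.24, 3 higher and 0 lower of 17). Values with the same cluster weights in both libraries were not made for this list. How far the unlike filling of clusters enters its class values was not tested.

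Cdkn2c and Fzr1 had the highest ratios of that list in the later spermatocytes. Cdkn2c (p18), an inhibitor of CDK4 and CDK6, was at 150.1 CPM in cKO and 45.5 CPM in control mid to late spermatocyte-like cells (1.72, 1.65 to 1.80), 76.2 (cKO) and 34.5 (control) CPM in early spermatocyte-like cells (1.14, 0.98 to 1.31) and 37.5 (cKO) and 14.6 (control) CPM in round spermatid-like cells (1.36, 1.21 to 1.51). In spermatogonium-like cells it was at 26.0 (cKO) and 8.62 (control) CPM (1.59, 0.83 to 2.44), but its 83 cKO and 17 control UMIs there stand beside 65.0 cKO and 7.37 control UMIs that free RNA would give. Fzr1 (CDH1), an activator of the APC/C, was at 90.5 CPM in cKO and 41.3 CPM in control mid to late spermatocyte-like cells (1.13, 1.05 to 1.22) and 95.4 (cKO) and 25.4 (control) CPM in round spermatid-like cells (1.91, 1.80 to 2.02). In spermatogonium-like cells it was at 45.0 (cKO) and 26.4 (control) CPM (0.77, 0.31 to 1.26), with 144 cKO and 52 control UMIs beside 59.8 cKO and 8.14 control UMIs from free RNA. Within the 9 clusters the ratio lay between 1.2 and 1.95 for Cdkn2c and between 0.50 and 1.70 for Fzr1. In somatic cells, which Ddx4-Cre is not known to act in, Cdkn2c had 174 cKO and 23 control UMIs (0.72, 0.09 to 1.42) and Fzr1 84 cKO and 8 control UMIs (1.19, 0.15 to 2.45), with 87.8 cKO and 5.57 control UMIs and 80.8 cKO and 6.16 control UMIs from free RNA.

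Other genes at the ends of the list had smaller ratios. In spermatogonium-like cells the lowest were Ccnd2 (−0.72), Ncapd2 (−0.66) and Cdk6 (−0.54), and Spdya (0.95) was among the 3 highest, beside Cdkn2c and Fzr1. In early spermatocyte-like cells the lowest were Cdk6 (−0.50), Anapc13 (−0.48) and Pttg1 (−0.41), and the highest after Cdkn2c were Foxm1 (0.71) and E2f1 (0.70). In mid to late spermatocyte-like cells the lowest were Ncaph (−0.61), Spc25 (−0.48) and Pttg1 (−0.48), and Trip13 (0.84) came after Cdkn2c and Fzr1. Pttg1 is securin, the inhibitor of separase, and was at 179.6 (cKO) and 251 (control) CPM in cKO and control cells of that class. In round spermatid-like cells the lowest were Orc1 (−1.0), Kif2c (−0.79) and Cdc16 (−0.60), and Mcm5 (1.21) came after Fzr1 and Cdkn2c. In elongating spermatid-like cells the lowest were Ccnd1 (−1.45), Cdc16 (−0.68) and Ensa (−0.66), and the highest Fzr1 (1.72), Gins2 (1.35) and Meikin (1.31), in a class whose levels were largely at the free RNA estimate.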

How the data were processed

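Single-cell RNA of whole testis was measured in 1 Dot1L cKO and 1 control library. The authors deposited whole-number UMI counts per gene and barcode, in filtered matrices whose file headers name Cell Ranger 7.0.0, and the submitters' processing notes name mm10 and Seurat 4.1.0. The settings of the alignment are not given in the sources used here.

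Barcodes with at least 500 UMIs and 300 genes and at most 10% mitochondrial UMIs were kept. Doublets were scored against 2 simulated doublets per cell, with the 80th percentile of the simulated scores as threshold, which removed 345 cKO and 227 control cells. Counts scaled to 10000 per cell were logged and reduced over 2000 variable genes to 30 principal components, without integration, and clustered on 20 nearest neighbours (Leiden, resolution 1.0). Dot1l, all division genes and mitochondrial genes stayed out of the clustering. Clusters were named from marker lists of 13 cell types, with at least 3 markers, and the thresholds for naming and for low RNA were set after the clusters were seen. UMIs were summed per class and library, and a gene with at least 50 UMIs over both sums counts as measured. No p-values were computed. Shares were read after thinning to 2000 UMIs, with 5000 and no thinning as alternatives. A share of 0 is given with the limit that 3 counts allow. The free RNA estimate comes from spermatid markers in somatic cells, which may themselves express some of these genes. A gene's shared 3′ end was found from its sequence in the GENCODE transcripts.

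The 30 members and the further lists (124 genes in 6 groups) were chosen with earlier results of these data known. All members are named. Of the further genes the 3 highest and 3 lowest ratios in each class were named, among those with at least 100 UMIs over both libraries. The ratios and their counting intervals were tested on simulated sums with known folds, drawn with counting error alone. The filters, doublet calls, clustering, naming, free RNA estimate and thinning were not tested in this way. Python 3.11.15, numpy 2.4.6, scipy 1.17.1, pandas 2.3.3, scikit-learn 1.9.0, leidenalg 0.10.2, igraph 0.11.9 and matplotlib 3.10.9 were used. Other filters, clusterings, totals, naming rules, a free RNA subtraction and the same cluster weights in both libraries were tried as alternatives. Class values with low-RNA clusters added and values within the 9 shared clusters were chosen after the data were seen.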

Additional observations from a re-analysis of the deposited data

How the results depend on the processing

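The settings below are alternatives to the processing above, and each was changed alone. The members' median log2 ratio of cKO over control in round spermatid-like cells, 0.26, was 0.11 with median-of-ratios totals, 0.18 with division genes allowed in the clustering and 0.069 at resolution 0.5. It was 0.051 with each cell named by its highest marker score and 0.00795 with the same cluster weights in both libraries. In elongating spermatid-like cells it was 0.19 with the same weights, and it reversed to −1.39 with free RNA subtracted. With no more than 5% mitochondrial UMIs it was −0.24 for the spermatogonium-like class, and with median-of-ratios totals −0.12 for the mid to late spermatocyte-like class. Elongating over round spermatid-like cells gave −0.56 in the cKO and −1.26 in the control library with median-of-ratios totals, and −1.7 in the cKO without the 50 most abundant genes in the totals, while free RNA subtraction gave no value there.

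Members past 1.5-fold in either direction numbered 1 in spermatogonium-like cells with median-of-ratios totals, with free RNA subtracted and at resolution 0.5. In early spermatocyte-like cells they numbered 1 at a minimum of 200 UMIs and with the same weights, and 2 at 5% mitochondrial UMIs. In mid to late spermatocyte-like cells they numbered 0 with median-of-ratios totals, at resolution 2.0 and with the same weights, 3 at a minimum of 20 UMIs and 2 with doublets kept. At a minimum of 200 UMIs they numbered 3 in round and 5 in elongating spermatid-like cells, and in the latest class 5 with free RNA subtracted and 7 by highest score. The median difference in percent of cells with a UMI, cKO minus control, without thinning was −2.34 for the spermatogonium-like class, −3.03 for the early spermatocyte-like class and 1.22 for the round spermatid-like class, and at 5000 UMIs it was 1.64 for the early spermatocyte-like class.

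With the same weights 4 single members reversed: Ccne2 to 0.10 in round spermatid-like cells, and Bub1 to −0.027, Top2a to −0.67 and Cenpe to −0.18 in elongating spermatid-like cells. Of 133 member and class values, 28 moved by more than their counting interval with median-of-ratios totals and 38 with the same weights. No paired analysis was possible because each genotype has 1 library, and for the same reason no library could be left out.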
